A study of Rattus norvegicus with 6 samples.

Results

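The extracellular matrix holds, beside its collagens, a set of secreted glycoproteins and small proteoglycans, and 55 rat genes that encode them were listed by function. Of these, 42 were measured in dorsal root ganglia (DRG), as part of 13215 genes that had a transcript cluster annotated to that symbol alone, among 19418 transcript clusters in all. The other 13 (Nid1, Hspg2, Thbs1, Thbs3, Thbs4, Comp, Tgfbi, Spp1, Ogn, Ecm2, Emilin2, Mfap4 and Cilp) had no such cluster in the annotation used here and were not analysed. A transcript cluster is the array's unit for a gene, summarised over probesets that lie in its exons. For a gene with several clusters the one with the highest mean over all arrays was used, which affected only Nid2.

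Adhesive glycoproteins such as fibronectin give cells a surface to hold through integrins, and basement membrane glycoproteins tie laminin and type IV collagen networks together. Matricellular proteins, among them the thrombospondins and periostin, build little structure and instead modulate how cells respond to the matrix, and many of them appear in tissue repair. Fibrillins, fibulins and latent TGF-beta binding proteins (LTBPs) assemble microfibrils and elastic fibres and hold growth factors in store, while small leucine-rich proteoglycans bind collagen fibrils. In a ganglion these proteins surround neurons and their satellite glia, ensheath Schwann cells and fill the connective tissue capsule.

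Tissue came from the L5 DRG of male Wistar rats. In the spinal nerve transection (SNT) group the L5 spinal nerve had been cut and the ganglia were taken 7 days after surgery, whereas the naive group had no operation. There were 3 SNT and 3 naive arrays, and each array carried polyadenylated RNA of a pool of 4 rats, which makes 12 rats per group. No sham-operated animals were analysed here, so the effects of surgery and of nerve transection cannot be told apart, and RNA of whole ganglia was measured, in which fewer cells of a type and less RNA per cell cannot be told apart. Values are normalised probe intensities on a log2 scale, and differences are SNT minus naive. A level of one gene cannot be set against that of another on these arrays.

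The labels were checked with Atf3, a transcription factor induced in injured sensory neurons, which had 11.36, 11.52 and 11.63 in SNT replicates 1 to 3 and 7.74, 7.69 and 7.74 in naive replicates 1 to 3. The groups lay far apart, as labelled. Sensory neuron markers (6 of 10 listed were measured) had a mean level of 10.27 to 10.84 in SNT arrays and 11.16 to 11.28 in naive arrays. Of these 6 markers 3 were lower in SNT (5 without SNT replicate 3 or with median centring), with a median difference of -0.45. Over all clusters 14.8% were lower, or 13.3% without SNT replicate 3 and 17.5% with median centring. Naive arrays correlated with each other at r = 0.994 to 0.996 across clusters. SNT replicate 1 stood apart from the other SNT arrays, with r = 0.978 to 0.981 to the naive arrays, where SNT replicates 2 and 3 had 0.957 to 0.969.

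Of the 42 measured members, 22 were higher and 5 were lower in SNT at a false discovery rate (FDR) of 0.1, and 15 did not pass (limma, Benjamini-Hochberg adjustment over all clusters). The higher calls were 52.4% of the members, against 17.3% of all clusters, and the lower calls 11.9% of the members, against 14.8% of all clusters (32.1% of all clusters were called in either direction). All clusters include dim ones and ones without a symbol. Of the 13215 genes with 1 symbol, 19.9% were higher and 18.3% lower. With clusters that were dim in both groups left out, 25 of 40 members were higher and 5 lower, against 26.2% and 29% of the clusters kept. The median log2 difference was 0.50 over the members (quartiles 0.10 and 0.72) and 0.09 over all clusters. The number lower was 3 without SNT replicate 2, naive replicate 1 or naive replicate 3. In those fits 12.5%, 9.56% and 11% of all clusters were lower. Differences above 0 were found for 32 of the 42 members. With each array centred on its median, 17 members were higher and 5 lower, against 9.63% and 17.5% of all clusters. That scaling lowered the median difference of all clusters by 0.09, and the share of all calls that were higher was 35.5% instead of 54.0%. At least 2-fold higher and called were 9 members, against 1.85% of all clusters: Cthrc1, Thbs2, Postn, Fn1, Fbn1, Fbn2, Nid2, Efemp2 and Ltbp1. The greatest fall among the members was that of Fbln2, which was 1.78-fold lower.

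All 3 SNT arrays lay above all 3 naive arrays for 22 members and below them for 5, which compares with 26% and 18.5% of all clusters. These are not quite the called genes: Lum and Mgp were called higher although their groups overlapped, and Sparc and Ltbp3 had groups that did not overlap but were not called. The plot of differences by role shows the range in each group of proteins.

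**Figure D1:**
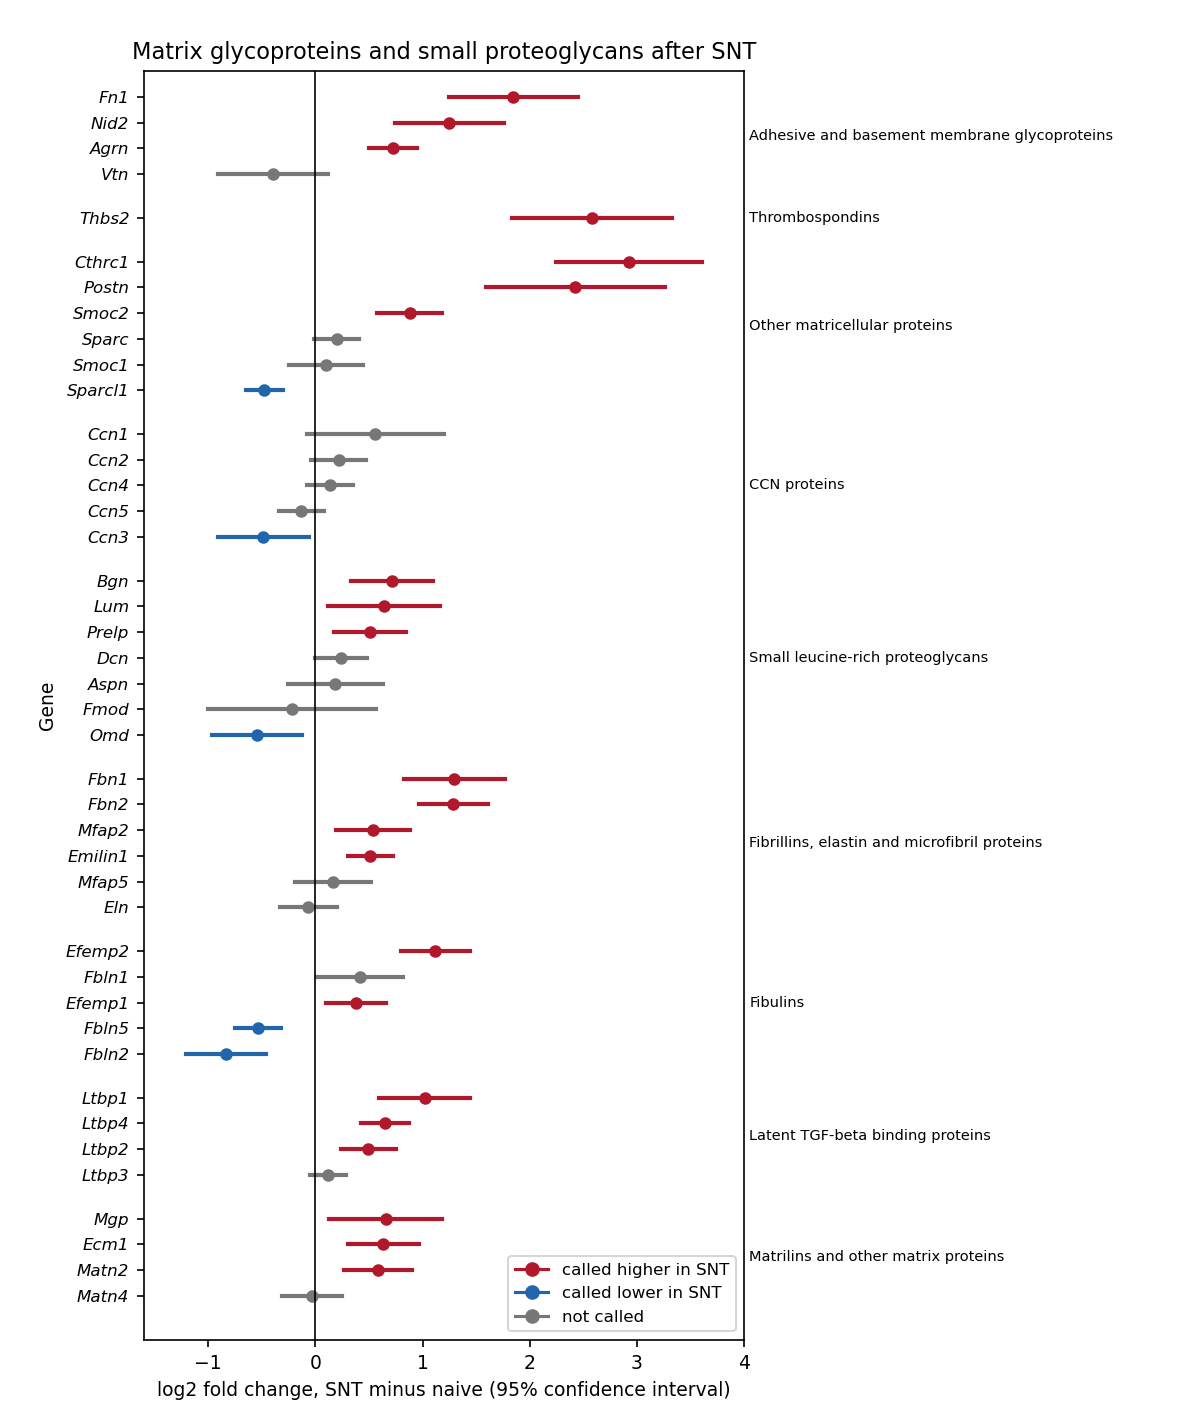
Log2 difference of each of the 42 members, SNT minus naive (x axis), with its 95% confidence interval from limma, ordered by role down the page (n = 3 arrays per group). Red marks the 22 members called higher in SNT, blue the 5 called lower and grey the 15 not called. Cthrc1, Thbs2 and Postn lie farthest to the right.

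**Figure D2:**
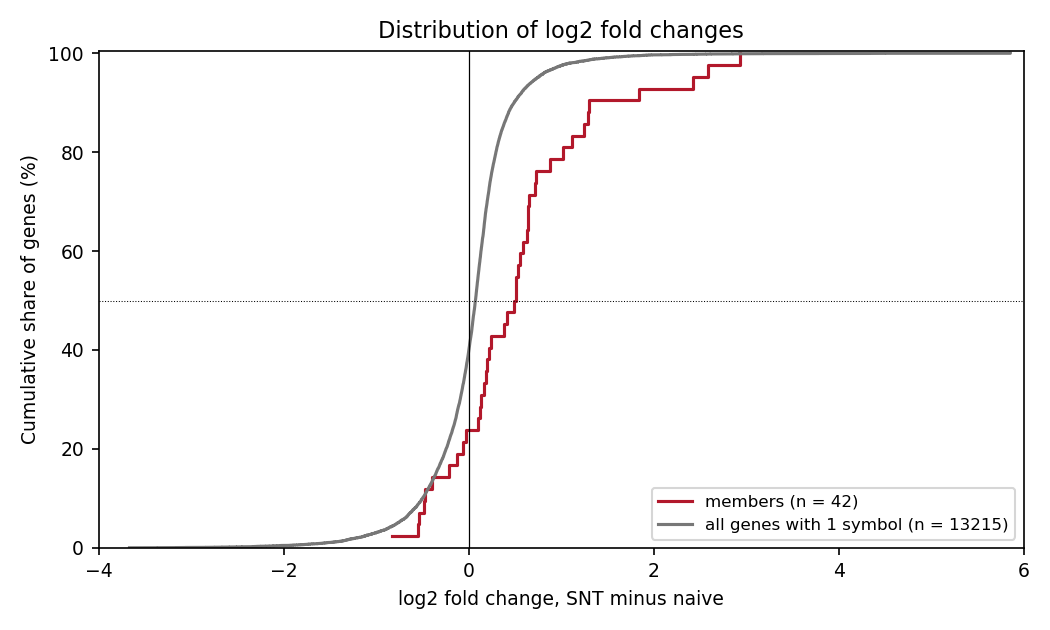
Cumulative share of genes (y axis, %) against log2 difference, SNT minus naive (x axis), for the 42 members in red and for all 13215 genes with 1 symbol in grey. The red curve lies to the right of the grey one over most of its course, with a median of 0.50 for members and 0.07 for all such genes.

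Promoter sequences were looked up to show what stands in front of members that moved in different directions. RefSeq start sites of the GRCr8 assembly gave a window of 250 bases before to 50 bases after the start for 25 of the 42 members, 12 of them called higher, 4 lower and 9 not called. Thbs2, Cthrc1 and Fn1 were not among these 25. The promoter of Postn is shown as the member with the largest rise among the 25, those of Efemp2 and Fbln2 as fibulin family genes called in opposite directions, and that of Ccn2 as a CCN gene not called. Their windows lie at chr2:140677811-140678110, plus strand (Postn), chr1:212211472-212211771, plus strand (Efemp2), chr4:125261409-125261708, plus strand (Fbln2) and chr1:22624565-22624864, minus strand (Ccn2). Each is printed 5′ to 3′ in the direction of transcription, with capitals marking a match on either strand to any of 4 short motifs, namely the AP-1 site TGACTCA, the TEAD site CATTCC, the TATA box TATAAA and the GC box GGGCGG.
Postn: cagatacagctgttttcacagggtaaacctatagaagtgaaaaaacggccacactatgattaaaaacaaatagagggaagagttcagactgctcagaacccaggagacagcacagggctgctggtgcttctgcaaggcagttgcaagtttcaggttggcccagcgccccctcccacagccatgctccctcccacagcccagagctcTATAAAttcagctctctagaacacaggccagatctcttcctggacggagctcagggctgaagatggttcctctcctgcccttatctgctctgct
Efemp2: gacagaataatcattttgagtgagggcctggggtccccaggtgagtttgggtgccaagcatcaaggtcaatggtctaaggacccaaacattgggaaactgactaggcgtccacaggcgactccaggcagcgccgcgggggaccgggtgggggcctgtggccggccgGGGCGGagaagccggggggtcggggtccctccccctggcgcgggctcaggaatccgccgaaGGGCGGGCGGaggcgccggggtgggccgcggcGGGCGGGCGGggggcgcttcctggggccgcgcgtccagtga
Fbln2: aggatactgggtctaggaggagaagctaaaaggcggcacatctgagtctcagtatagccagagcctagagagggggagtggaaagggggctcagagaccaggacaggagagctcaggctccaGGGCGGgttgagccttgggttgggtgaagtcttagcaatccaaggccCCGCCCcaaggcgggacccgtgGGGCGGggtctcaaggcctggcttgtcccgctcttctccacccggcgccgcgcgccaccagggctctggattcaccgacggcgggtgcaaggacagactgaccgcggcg
Ccn2: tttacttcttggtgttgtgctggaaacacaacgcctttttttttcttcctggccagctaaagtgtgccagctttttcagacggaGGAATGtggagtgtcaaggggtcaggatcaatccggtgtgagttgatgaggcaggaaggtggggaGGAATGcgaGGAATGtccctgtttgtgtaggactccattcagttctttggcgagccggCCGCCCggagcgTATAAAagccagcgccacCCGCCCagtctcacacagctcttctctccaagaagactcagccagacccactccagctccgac

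In these windows Postn had a single match, a TATA box at positions -44 to -39 from the start site. Efemp2 had 5 GC box matches, of which 2 pairs overlapped (positions -23 to -18 with -19 to -14, and 10 to 15 with 14 to 19), and Fbln2 had 3, on both strands. Ccn2 had 3 TEAD matches on the minus strand (from positions -166, -101 and -92), a TATA box from position -31 and 2 GC boxes. Over the 25 windows the TEAD site occurred in 6 (24%, against 14.2% of all 33469 promoters of that length), in 1 of 12 members called higher, 1 of 4 called lower and 4 of 9 not called. The GC box occurred in 14 (56%, against 33.1%), the TATA box in 5 (20%, against 14.2%) and the AP-1 site in 1, Ecm1 (4%, against 4.63%). A match describes letters only, and binding at these windows was not measured.

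Among the adhesive and basement membrane glycoproteins 3 of 4 were higher in SNT and 1 was not called, with a median difference of 0.99. Counts by role, here and below, stand beside 17.3% higher and 14.8% lower over all clusters. Among genes with 1 symbol these shares were 19.9% and 18.3%. Fn1, which encodes fibronectin, the main ligand of several integrins, had 11.36, 12.22 and 12.06 in SNT replicates 1 to 3, against 10.08, 9.70 and 10.32 in naive replicates 1 to 3. The SNT arrays lay above the naive arrays without overlap, with SNT replicate 1 the lowest of them, and the difference was 1.85 ± 0.25 (SE, 3.60-fold, adjusted p = 0.00643). Nid2, encoding the nidogen 2 that links laminin to type IV collagen, had 10.10, 10.80 and 10.77 in SNT replicates 1 to 3, against 9.41, 9.05 and 9.46 in naive replicates 1 to 3. Again SNT replicate 1 was nearest to the naive arrays without overlap, with a difference of 1.25 ± 0.21 (2.38-fold, adjusted p = 0.0104). A second cluster annotated to Nid2, with a lower mean, moved the other way, at 5.83, 5.77 and 5.97 in SNT and 6.65, 6.19 and 6.36 in naive (-0.54 ± 0.13, adjusted p = 0.0280). That second cluster was dim, at 5.77 to 6.65 over the arrays, whose medians over all clusters were 6.11 to 6.31. The direction for Nid2 rests on which cluster stands for the gene, and the rise was seen in the brighter one. Agrn, encoding the basement membrane proteoglycan agrin that organises the neuromuscular junction, had 8.94, 9.11 and 9.24 in SNT replicates 1 to 3, against 8.37, 8.41 and 8.34 in naive replicates 1 to 3. These groups did not overlap and naive arrays lay close together (0.73 ± 0.10, 1.65-fold, adjusted p = 0.00590). Vtn, encoding the adhesive plasma protein vitronectin, was not called, with a difference of -0.40 (95% confidence interval -0.91 to 0.12). Without naive replicate 2 it was called lower (-0.61, adjusted p = 0.0839).

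The only thrombospondin measured was Thbs2, whose product limits vessel growth and affects collagen fibril assembly. Thbs2 had 9.67, 10.90 and 10.58 in SNT replicates 1 to 3, against 7.93, 7.49 and 7.97 in naive replicates 1 to 3. Every SNT array exceeded every naive array by more than 1 log2 unit, and SNT replicate 1 lay lowest in SNT. The difference was 2.58 ± 0.31 (SE, 6.00-fold, adjusted p = 0.00525), and Thbs2 ranked 23 of 13215 genes by it.

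Of 6 other matricellular genes 3 were higher, 1 was lower and 2 were not called, with a median of 0.54. Cthrc1, encoding a secreted glycoprotein known from injured arteries, had 8.65, 9.85 and 9.48 in SNT replicates 1 to 3, against 6.45, 6.25 and 6.49 in naive replicates 1 to 3. This was the greatest rise of all members (2.93 ± 0.29, 7.61-fold, adjusted p = 0.00366), and the SNT arrays differed among themselves with an SD of 0.62, against 0.13 for the naive arrays. Postn, encoding periostin, which binds integrins and takes part in collagen cross-linking, had 7.60, 9.12 and 8.58 in SNT replicates 1 to 3, against 6.07, 5.86 and 6.09 in naive replicates 1 to 3. The groups lay apart, although the SNT arrays spread over an SD of 0.77 with replicate 1 the lowest (2.43 ± 0.35, 5.38-fold, adjusted p = 0.00700). Smoc2, from the family of SPARC-related calcium-binding proteins, had 9.01, 9.16 and 9.33 in SNT replicates 1 to 3, against 8.23, 8.13 and 8.50 in naive replicates 1 to 3, a smaller rise without overlap (0.88 ± 0.13, 1.84-fold, adjusted p = 0.00703). Its relative Sparcl1, encoding hevin, an astrocyte protein of synapse formation in the brain, went down, with 11.19, 11.23 and 11.27 in SNT replicates 1 to 3, against 11.70, 11.67 and 11.75 in naive replicates 1 to 3. The arrays of each group lay within an SD of 0.04 and all SNT arrays were below the naive ones (-0.48 ± 0.07, 1.39-fold lower, adjusted p = 0.00768). Sparc, encoding a collagen-binding protein, was not called (0.20, adjusted p = 0.153) and neither was Smoc1 (0.10, adjusted p = 0.656). Sparc passed under cyclic loess scaling (0.40, adjusted p = 0.0215) and with clusters that were dim in both groups left out (0.20, adjusted p = 0.0954).

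The 5 CCN genes, which encode cysteine-rich matricellular regulators of growth and adhesion, had 1 member lower and 4 not called, with a median of 0.14, and only the lower one had an unadjusted limma p under 0.05. The share lower, 20%, was near that of all clusters (14.8%) and of genes with 1 symbol (18.3%). Ccn3, whose product is known to restrain proliferation, had 8.88, 8.40 and 8.70 in SNT replicates 1 to 3, against 9.05, 8.92 and 9.47 in naive replicates 1 to 3. The groups lay just apart and the difference was -0.49 ± 0.18 (1.40-fold lower, adjusted p = 0.0952). That call was lost without SNT replicate 2 or 3 and without any one of the naive replicates (adjusted p = 0.106 to 0.237), and also when the arrays were rescaled by cyclic loess (-0.41, adjusted p = 0.179) or by quantiles (-0.39, adjusted p = 0.207). Ccn1, an early response gene that promotes adhesion, had 7.85, 8.48 and 7.85 in SNT replicates 1 to 3, against 7.41, 7.09 and 8.01 in naive replicates 1 to 3. Naive replicate 3 exceeded SNT replicates 1 and 3, so the groups overlapped (0.56 ± 0.27, adjusted p = 0.185), and without naive replicate 3 the difference of 0.81 passed at an adjusted p of 0.0734. Ccn2, encoding connective tissue growth factor, differed by 0.22 (95% confidence interval -0.04 to 0.47) and passed only without SNT replicate 2 (0.30, adjusted p = 0.0886). The intervals of Ccn4 (95% confidence interval -0.08 to 0.35) and Ccn5 (95% confidence interval -0.34 to 0.08) left out a 2-fold change in either direction.

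Of the 7 small leucine-rich proteoglycans 3 were higher, 1 was lower and 3 were not called, with a median of 0.24. Bgn, encoding biglycan, a proteoglycan that can also signal through innate immune receptors, had 11.25, 11.63 and 11.79 in SNT replicates 1 to 3, against 10.86, 10.66 and 11.01 in naive replicates 1 to 3. The SNT arrays lay above the naive ones without overlap (0.71 ± 0.16, 1.64-fold, adjusted p = 0.0229). Lum, encoding lumican, which spaces collagen fibrils, had 10.54, 11.13 and 11.20 in SNT replicates 1 to 3, against 10.39, 9.97 and 10.58 in naive replicates 1 to 3, and SNT replicate 1 fell below naive replicate 3 (0.64 ± 0.22, 1.56-fold, adjusted p = 0.0807). Prelp, whose product anchors basement membranes to the underlying connective tissue, had 10.59, 10.73 and 10.89 in SNT replicates 1 to 3, against 10.20, 10.01 and 10.48 in naive replicates 1 to 3. Its groups lay apart by a small gap (0.51 ± 0.14, 1.42-fold, adjusted p = 0.0426). Omd, encoding osteomodulin, known from mineralised tissue, had 6.51, 6.36 and 6.76 in SNT replicates 1 to 3, against 7.02, 6.82 and 7.42 in naive replicates 1 to 3. All its SNT arrays were below the naive arrays (-0.55 ± 0.18, 1.46-fold lower, adjusted p = 0.0668). Single arrays decided the calls of Lum (lost without SNT replicate 2 or 3 or naive replicate 1 or 2, adjusted p = 0.166 to 0.216), Prelp (without SNT replicate 3 or naive replicate 1 or 2, 0.104 to 0.133) and Omd (without SNT replicate 1 or 2 or naive replicate 1 or 3, 0.117 to 0.163). Dcn, encoding decorin, a binder of TGF-beta and collagen, was not called (0.24, adjusted p = 0.145) but passed under cyclic loess (0.43, adjusted p = 0.0260), with dim clusters left out (0.24, 0.0938), with array weights (0.27, 0.0841) and without SNT replicate 1 (0.31, 0.0562). Fmod, encoding fibromodulin, had 5.92, 4.71 and 4.92 in SNT replicates 1 to 3, against 5.36, 5.09 and 5.75 in naive replicates 1 to 3. SNT replicate 1 was the highest of all 6 arrays and SNT replicate 2 the lowest, so no direction could be given (-0.22 ± 0.33, adjusted p = 0.664), and without SNT replicate 1 it was called lower (-0.59, adjusted p = 0.0809). Aspn, encoding asporin, was not called (95% confidence interval -0.25 to 0.63).

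Fibrillins, elastin and microfibril proteins gave 4 of 6 members higher and 2 not called, with a median of 0.52. Fbn1, encoding fibrillin 1, the main subunit of microfibrils in adult tissue, had 9.61, 10.29 and 10.24 in SNT replicates 1 to 3, against 8.81, 8.53 and 8.91 in naive replicates 1 to 3. The groups did not overlap and SNT replicate 1 lay nearest to naive (1.30 ± 0.20, 2.46-fold, adjusted p = 0.00796). Fbn2, encoding the fibrillin that prevails in development, had 7.44, 7.84 and 7.78 in SNT replicates 1 to 3, against 6.41, 6.24 and 6.55 in naive replicates 1 to 3. Its difference was close to that of Fbn1, with less spread in SNT (1.29 ± 0.14, 2.44-fold, adjusted p = 0.00428). Emilin1, encoding an elastic fibre glycoprotein, had 7.17, 7.19 and 7.02 in SNT replicates 1 to 3, against 6.51, 6.66 and 6.67 in naive replicates 1 to 3. Mfap2, encoding a small microfibril-associated glycoprotein, had 7.21, 7.31 and 7.61 in SNT replicates 1 to 3, against 6.84, 6.64 and 7.03 in naive replicates 1 to 3. Both rose without overlap between groups, Emilin1 by 0.51 ± 0.09 (1.43-fold, adjusted p = 0.0107) and Mfap2 by 0.54 ± 0.14 (1.45-fold, adjusted p = 0.0381). Mfap2 lost its call without naive replicate 1 or 2 (adjusted p = 0.116 and 0.123). Eln, encoding elastin itself, the core of the fibre, differed by -0.07 (95% confidence interval -0.33 to 0.20), and the related microfibril gene Mfap5 by 0.17 (95% confidence interval -0.19 to 0.52), and neither was called.

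The 5 fibulins, which join elastic fibres and basement membranes, divided into 2 called higher, 2 called lower and 1 not called. Over all clusters 17.3% were higher and 14.8% lower. Efemp2, encoding fibulin 4, which is needed for elastic fibre assembly and for lysyl oxidase to work, had 9.54, 9.90 and 9.83 in SNT replicates 1 to 3, against 8.73, 8.42 and 8.76 in naive replicates 1 to 3. The SNT arrays were all above the naive arrays by a wide gap (1.12 ± 0.14, 2.17-fold, adjusted p = 0.00517). Fbln2, encoding a fibulin that binds nidogens and fibronectin, had 9.30, 8.83 and 8.85 in SNT replicates 1 to 3, against 9.83, 9.999 and 9.64 in naive replicates 1 to 3. All SNT arrays lay below the naive arrays, with SNT replicate 1 the highest of them (-0.83 ± 0.16, 1.78-fold lower, adjusted p = 0.0133). Fbln5, whose product also serves elastic fibre assembly, had 10.23, 10.11 and 9.98 in SNT replicates 1 to 3, against 10.65, 10.70 and 10.60 in naive replicates 1 to 3. It was lower without overlap, and the naive arrays had an SD of only 0.05 (-0.54 ± 0.09, 1.45-fold lower, adjusted p = 0.00983). Efemp1, encoding fibulin 3, was called higher at 0.38 ± 0.12 (adjusted p = 0.0588), a call lost without any one of SNT replicates 2 and 3 and the naive replicates (adjusted p = 0.110 to 0.179). Fbln1 was not called (0.42, adjusted p = 0.122), though it passed without SNT replicate 2 (0.52, adjusted p = 0.0974). It also passed under quantile scaling (0.47, adjusted p = 0.0952) and with dim clusters left out (0.42, 0.0830). The same held for a fit on the most variable cluster per gene (0.42, 0.0957) and for one with a replicate block (0.42, 0.0513).

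**Figure D3:**
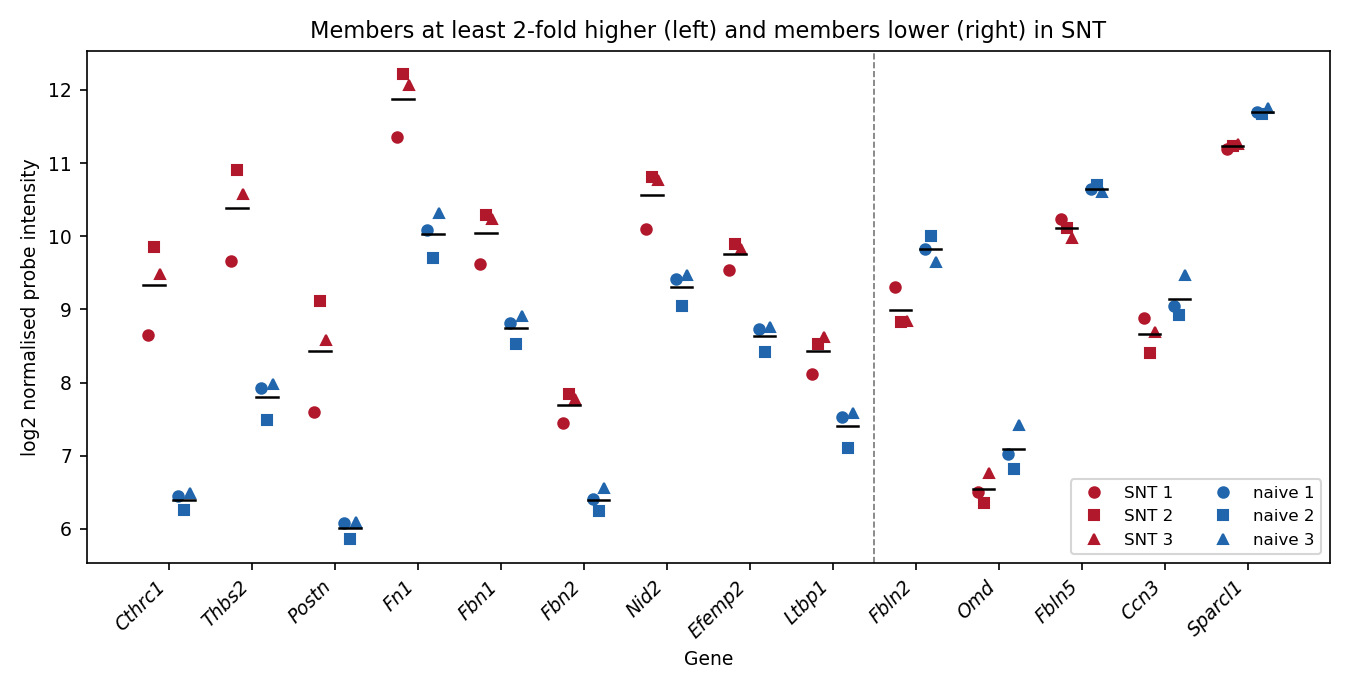
Log2 normalised probe intensity (y axis) on each array for the 9 members called at least 2-fold higher (left of the dashed line) and the 5 called lower (right), with SNT in red and naive in blue, symbols for replicates 1 to 3 and black bars for group means. For each of the 9 left-hand genes SNT replicate 1 (circle) is the lowest red point and still lies above every blue point.

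LTBPs hold latent TGF-beta in the matrix, apart from LTBP2, which does not bind it. Of the 4 genes 3 were higher and 1 was not called, with a median of 0.57. Ltbp1 had 8.12, 8.53 and 8.63 in SNT replicates 1 to 3, against 7.53, 7.10 and 7.59 in naive replicates 1 to 3. The groups lay apart, naive replicate 2 being the lowest array (1.02 ± 0.18, 2.03-fold, adjusted p = 0.0112). Ltbp4, tied to elastic fibres of lung and vessels, had 8.57, 8.72 and 8.80 in SNT replicates 1 to 3, against 8.03, 7.97 and 8.16 in naive replicates 1 to 3. Its groups were also apart, with little spread within either (0.65 ± 0.09, 1.56-fold, adjusted p = 0.00708). Ltbp2 was called higher at 0.49 ± 0.11 (adjusted p = 0.0206). Ltbp3 differed by 0.12 (adjusted p = 0.261) and did not pass, although its groups did not overlap.

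Of 4 matrilins and other matrix proteins 3 were higher and 1 was not called, with a median of 0.61. Matn2, encoding matrilin 2, an adaptor of filamentous networks known from peripheral nerve, had 9.72, 10.07 and 10.10 in SNT replicates 1 to 3, against 9.49, 9.21 and 9.45 in naive replicates 1 to 3. Ecm1, encoding extracellular matrix protein 1, had 7.70, 8.02 and 8.23 in SNT replicates 1 to 3, against 7.29, 7.34 and 7.42 in naive replicates 1 to 3. In both genes the SNT arrays lay above the naive arrays and SNT replicate 1 was the lowest of them, with differences of 0.58 ± 0.13 for Matn2 (1.498-fold, adjusted p = 0.0230) and 0.63 ± 0.14 for Ecm1 (1.55-fold, adjusted p = 0.0212). Mgp, encoding matrix Gla protein, an inhibitor of calcification, had 11.42, 11.83 and 11.69 in SNT replicates 1 to 3, against 10.91, 10.61 and 11.46 in naive replicates 1 to 3. Naive replicate 3 lay just above SNT replicate 1, so the groups overlapped (0.65 ± 0.22, 1.57-fold, adjusted p = 0.0775), and the call was lost without SNT replicate 2 or 3 or naive replicate 1 or 2 (adjusted p = 0.149 to 0.205). Matn4 differed by -0.03 (95% confidence interval -0.31 to 0.25) and was not called.

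The same arrays recurred at the edges of the groups. SNT replicate 1 was the SNT array nearest to naive in 20 of the 22 members called higher (90.9%), compared with 56% of all clusters called higher, and in 3 of the 5 called lower. The median difference of those 22 from the naive mean was 0.56, 0.83 and 0.92 on SNT replicates 1 to 3. Within the naive group, replicate 2 was the lowest array in 33 of 42 members (78.6%, against 29.8% of all clusters) and replicate 3 the highest in 32 (76.2%, against 33.5%). Markers of several cell types had the same order in naive replicates 1 to 3, with medians from the naive mean of 0.01, -0.17 and 0.18 for fibroblasts, -0.06, -0.15 and 0.25 for macrophages, 0.05, -0.19 and 0.14 for Schwann cells and -0.01, -0.08 and 0.08 for satellite glia. Mural (0.08, -0.10 and 0.06) and endothelial markers (0.08, -0.10 and 0.06) were lowest on replicate 2 but highest on replicate 1. Other orders were found for sensory neurons (0.02, 0.06 and -0.07), skeletal muscle (-0.04, 0.10 and -0.07) and cartilage and bone (-0.10, 0.01 and 0.06).

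Markers of cells that could carry these transcripts were counted next. All 12 macrophage markers measured, of 13 listed, were higher in SNT (11 without naive replicate 1 or 2), with a median of 1.92. Examples are Gpnmb (3.84), a glycoprotein of lipid-laden macrophages, and the complement genes C1qa (2.31) and C1qb (2.46). Their median difference from the naive mean was 1.23, 2.27 and 2.08 on SNT replicates 1 to 3, the lowest again on replicate 1, and their mean log2 level ranged over 8.84 to 9.80 in SNT arrays and 7.22 to 7.61 in naive arrays. Of 7 fibroblast markers 4 were higher and 3 not called, with a median of 0.53, and 0.43, 0.57 and 0.57 on SNT replicates 1 to 3. The number higher was 3 with median centring, and also without SNT replicate 2, naive replicate 1 or naive replicate 2. The mean level of the fibroblast list was 8.31 to 8.53 in SNT arrays and 7.90 to 8.20 in naive arrays. The markers called were Scara5 (0.53), Col1a2 (0.62), Col3a1 (0.65) and Fap (0.78). Fap was dim, at 4.45 to 5.76 over the arrays, whose medians over all clusters were 6.11 to 6.31. The 3 not called, named after their values were seen, were Dpt (-0.15), Pi16 (0.03) and Twist2 (0.32). Mural cell markers were higher in 3 of 7, endothelial in 2 of 6 and Schwann cell markers in 2 of 6 with 1 lower. Leaving out 1 array gave 2 to 4 mural and 1 or 2 endothelial markers higher, with 1 endothelial marker without SNT replicate 2 or any one of the naive replicates, and no Schwann cell marker lower without naive replicate 1 or 3. Satellite glia markers were higher in 1 and lower in 2 of 5 (with 1 lower when any array but SNT replicate 1 was left out and 0 higher without naive replicate 1 or 2), and cartilage and bone markers were higher in 1 and lower in 1 of 6. With median centring the number of endothelial markers higher was 1. All these counts stand beside 17.3% higher and 14.8% lower over all clusters, or 9.63% and 17.5% with median centring. Of 3 skeletal muscle markers 0 were called by limma and 0 had an unadjusted p under 0.05, with medians of -0.26, -0.29 and 0.82 from the naive mean on SNT replicates 1 to 3, and without SNT replicate 3, 2 of them were called lower. The part of any of these cells in the members' differences was not tested.

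**Figure D4:**
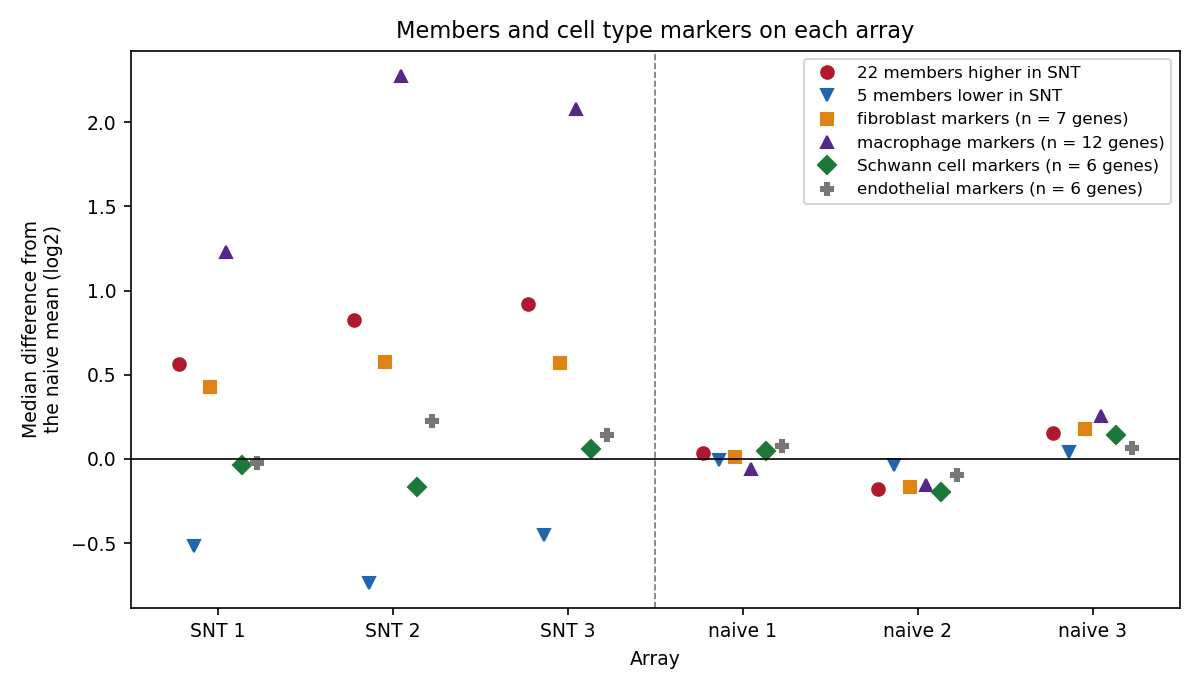
Median log2 difference from the naive mean (y axis) on each of the 6 arrays (x axis) for the 22 members higher in SNT, the 5 members lower in SNT and marker lists of fibroblasts, macrophages, Schwann cells and endothelial cells. Members higher in SNT, fibroblast markers and macrophage markers are lowest among the SNT arrays on replicate 1, and in naive arrays each is lowest on replicate 2 and highest on replicate 3. Endothelial markers are also lowest on SNT replicate 1 and naive replicate 2, but highest among naive arrays on replicate 1. Schwann cell markers have the same naive order as the members higher in SNT, but are lowest among SNT arrays on replicate 2.

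The lists of receptors, TGF-beta genes, collagens and proteases are also to be read against the shares of all clusters called higher (17.3%) and lower (14.8%). Receptors of these proteins were measured for 13 of 21 listed genes, of which 9 were higher and 1 was lower (median 0.65). Leaving out 1 array gave 7 to 10 receptor genes higher. Cacna2d1, the calcium channel subunit that binds thrombospondins and gabapentin, had 10.38, 10.43 and 10.72 in SNT, against 8.93, 9.02 and 8.80 in naive. The groups were far apart (1.60 ± 0.12, 3.02-fold, adjusted p = 0.00235). Of the other genes with the smallest adjusted p, the syndecan genes Sdc1 and Sdc4, encoding cell surface heparan sulfate proteoglycans, rose by 1.57 ± 0.12 and 0.84 ± 0.11, and Cd44, a hyaluronan receptor that also binds osteopontin, by 0.97 ± 0.11. The lower gene, named after its value was seen, was the integrin subunit gene Itgb6 (-0.64 ± 0.11, adjusted p = 0.0112). Itgb6 was dim, at 5.19 to 6.06 over the arrays, whose medians over all clusters were 6.11 to 6.31. The other integrin subunit genes measured, also named after their values were seen, were called higher. These were Itga4 (0.81 ± 0.23), Itgb1 (0.54 ± 0.11) and Itgb8 (1.11 ± 0.17, adjusted p = 0.00772).

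Of 9 TGF-beta genes measured, 5 were higher and 2 lower (median 0.52). Tgfb1, one of the TGF-beta ligands, had 8.54, 9.34 and 8.90 in SNT, against 7.50, 7.12 and 7.55 in naive. No array overlapped between groups (1.54 ± 0.22, 2.91-fold, adjusted p = 0.00664). The receptor gene Tgfbr1 rose by 2.08 ± 0.31 and the signal transducers Smad3 and Smad4 by 0.74 ± 0.13 and 0.52 ± 0.10. The lower genes, named after their values were seen, were the other ligands Tgfb2 (-0.36 ± 0.09, adjusted p = 0.0262) and Tgfb3 (-0.30 ± 0.08, adjusted p = 0.0427), and the number lower was 1 without SNT replicate 2, naive replicate 1 or naive replicate 3 and 0 without naive replicate 2.

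Fibrillar collagens and the enzymes that process and cross-link them were higher in 10 of 11 measured genes, and 1 was not called (median 0.63). Without naive replicate 1 the number higher was 5, and without naive replicate 2 it was 7. Over all clusters 8.46% and 9.55% were higher in those fits. Col5a1 and Col5a2, chains of the type V collagen that nucleates fibrils, rose by 0.66 ± 0.08 and 0.86 ± 0.15, Pcolce, an enhancer of procollagen processing, by 0.84 ± 0.15, and the type I collagen chain Col1a2 by 0.62 ± 0.12. Col1a2 and Col3a1 stand in this list and in that of the fibroblasts. Proteases of the matrix and their inhibitors were higher in 9 of 13, and 4 were not called (median 0.81). Leaving out 1 array gave 7 to 11 of them higher, and 1 lower without SNT replicate 1. Plau, encoding urokinase, rose by 1.73 ± 0.21 and Mmp2, a gelatinase that also cleaves fibronectin, by 1.26 ± 0.19. Adamts1, a proteoglycan-cleaving protease, rose by 0.98 ± 0.16 and Mmp3, encoding stromelysin, by 0.52 ± 0.09. Mmp3 was dim, at 4.18 to 4.87 over the arrays, whose medians over all clusters were 6.11 to 6.31.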

How the data were processed

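RNA of 6 pools of L5 DRG, 3 SNT and 3 naive, was hybridised to Affymetrix Rat Exon 1.0 ST arrays. For every transcript cluster the authors deposited a log2 value, made in R with oligo by robust multi-array average (RMA: background correction, quantile normalisation and median polish). Their versions are not given in the sources used, and the probeset confidence level of the table is not stated. Arrays can understate large differences, and a dim cluster may hold nonspecific signal, for which no background level was available. Arrays have no read depth, and their number limits the precision. The platform annotation named a single symbol for 13327 clusters, several for 620 and none for 5471. Positions and promoters come from RefSeq (GRCr8), and other positions are not given since the array design used another assembly.

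SNT was compared with naive over all 19418 clusters by lmFit and eBayes (limma 3.58.1, R 4.3.3), two-sided, with 2.81 prior degrees of freedom, Benjamini-Hochberg adjustment and FDR 0.1 without a fold filter. A fold change of 2 was counted separately. Errors are SE unless named SD, for 3 arrays in each group. The smallest p of an exact test at this size is 0.1, and limma gave all p-values. The procedure was tested on simulated data. Pools were separate animals, and the labels give no pairing by replicate number. Alternatives were other scalings, a filter on dim clusters, an intensity trend, array weights, a replicate block, other clusters per gene and each array left out.

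Values on each array are given for up to 20 called members with the largest rise and up to 10 with the largest fall, for members not called with a difference of at least 0.5, and for members whose SNT arrays had an SD of at least 0.5. From pathway and marker lists up to 4 genes with the smallest adjusted p are named, and any others are said to be named after their values were seen. The members and lists were chosen with earlier results of these data known, so no list was tested as a set, and counts are set against all clusters. Motifs were searched as exact letters on both strands (Python 3.11.15, pandas 2.3.3), and figures were drawn with matplotlib 3.10.9.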

Additional observations from a re-analysis of the deposited data

How the results depend on the processing

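Over 15 alternatives, 19 of the 27 called members kept their call in each one that tested them, and 7 lost it at least once (Ccn3, Lum, Omd, Prelp, Mfap2, Efemp1 and Mgp). Nid2 was reversed with its cluster of lowest mean (-0.54). Median centring gave a members' median of 0.41 and lost 5 calls, those of Lum, Prelp, Mfap2, Efemp1 and Mgp. With 1 array left out, the members' median was 0.37 to 0.53, those called higher 17 to 23 and those called lower 3 to 5. In the same fits 8.46% to 19.8% of all clusters were higher and 9.56% to 16.6% lower. The lower count was 3 without SNT replicate 2, naive replicate 1 or naive replicate 3, and the median was lowest without naive replicate 2. Over all clusters 6232 were called, against 3499, 3745 and 4246 without naive replicates 1, 2 and 3. Of the 15 members not called, 7 passed at least once. Among those not called, the sign turned with 1 array left out for Smoc1 (-0.012 to 0.21, below 0 without SNT replicate 1), Fmod (-0.59 to 0.020, above 0 without SNT replicate 2), Eln (-0.14 to 0.017, above 0 without SNT replicate 2 or naive replicate 3) and Matn4 (-0.14 to 0.072, above 0 without SNT replicate 3 or naive replicate 1). The cause of these changes was not tested.

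Over all clusters, same-numbered SNT and naive arrays did not deviate together (r = -0.07, -0.15 and 0.05). Whether they did so within the members cannot be read from these values. The SE of Vtn was 0.11 with a replicate block and 0.22 without, whereas that of Agrn was 0.11 with it and 0.10 without. With the replicate number as a block, 22 members were higher and 6 lower, the members' median was 0.50 and 4700 clusters were called in all. Vtn (-0.40, adjusted p = 0.0686) and Fbln1 (0.42, 0.0513) passed in that fit, and Efemp1 (0.38, 0.123) did not. The filter on dim clusters removed Fmod and Matn4.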
